A study of Mus musculus with 6 samples.

Results

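Interferon-stimulated genes are the genes whose transcription rises when a cell receives a type I or type II interferon signal. The 47 described here are such genes of the mouse, named individually and matched by gene symbol in each deposited table, and all 47 were found among 22672 listed genes. They were measured by RNA sequencing in BV2 cells, an immortalized mouse microglial line, in 3 libraries labelled shscr-ctr and 3 labelled shNumb-ctr. By the usual reading of these names the first group carries a scrambled hairpin and the second a hairpin against Numb. The labels give no treatment, time or dose, do not spell out ctr, and do not say whether a line is 1 clone or whether each sample was its own culture. The p-values therefore reflect sample-to-sample spread alone, and that spread may be technical.

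Type I interferon acts through the receptor chains Ifnar1 and Ifnar2 and the kinases Jak1 and Tyk2, which lead to the factor ISGF3, with Stat2 and Irf9 among its subunits. ISGF3 binds the interferon-stimulated response element in the promoters of its targets, whereas the response to interferon gamma runs mainly through the gamma-activated site. In microglia and macrophages the products of these genes sense foreign RNA, degrade viral nucleic acids, block viral entry and release, and feed back on the pathway.

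The markers matched the cell type of the labels, but the gene named in the hairpin label did not. All 13 markers of microglia and macrophages reached 1 FPKM (fragments per kilobase, a level scaled to length and library) in at least 1 library, P2ry12 only barely, with a highest value of 1.09. The defining markers Gfap, Aqp4, Rbfox3, Mog, Cldn5 and Cd3g were listed at 0 in all 6 libraries. Summed over genes, a library came to 451077 to 455561 FPKM, and no depth could be read from them. Numb, which the hairpin should target by its name, did not fall: it was at 35.8, 36.7 and 36.1 FPKM under the shscr-ctr label and 38, 37.2 and 40 FPKM under the shNumb-ctr label (log2 fold change 0.08, SE 0.036, limma adjusted p = 0.137). Below, the 3 values of a label follow replicates 1, 2 and 3, with shscr-ctr first, and "higher" or "lower" describes the libraries labelled shNumb-ctr.

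Interferon-stimulated genes did not shift as a block between the labels. The effector genes Isg20 and Rsad2, the OAS family gene Oasl1 and the GTPase gene Mx2 were called higher, and Ifitm3, Irf1, Oas2 and Dtx3l lower, in the libraries labelled shNumb-ctr, out of 40 members tested (limma on log2 of FPKM + 1, Benjamini-Hochberg adjusted p under 0.05 over 10594 genes). These 8 genes are 20% of the tested members, against 18.8% of all tested genes called in either direction (8.11% higher and 10.7% lower, or 9.38% and 8.31% after median-of-ratios rescaling). Mx2 passed the filter on low values only through the shNumb-ctr libraries, so its call is conditioned on its difference; leaving out every gene that passed through 1 group only, 7 of 39 members (17.9%) and 18.6% of all tested genes were called. The members' share is near the background and is no result about the members as a group. Of the 8, Isg20 and Ifitm3 kept their calls when any library was left out and in all 14 alternative settings. Without shNumb-ctr replicate 2 the called members were Isg20, higher, and Ifitm3 and Oas2, lower, of 38 tested, where 14.5% of all tested genes were called, 6.24% higher and 8.26% lower. Changes were small: the fitted log2 fold changes of the tested members ran from -0.39 (Ifitm3) to 0.42 (Isg20). These are changes of FPKM + 1, a scale that shrinks changes of genes near 1 FPKM. As a fold of means, Mx2 (1.5) lay above Isg20 (1.41).

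**Figure D1:**
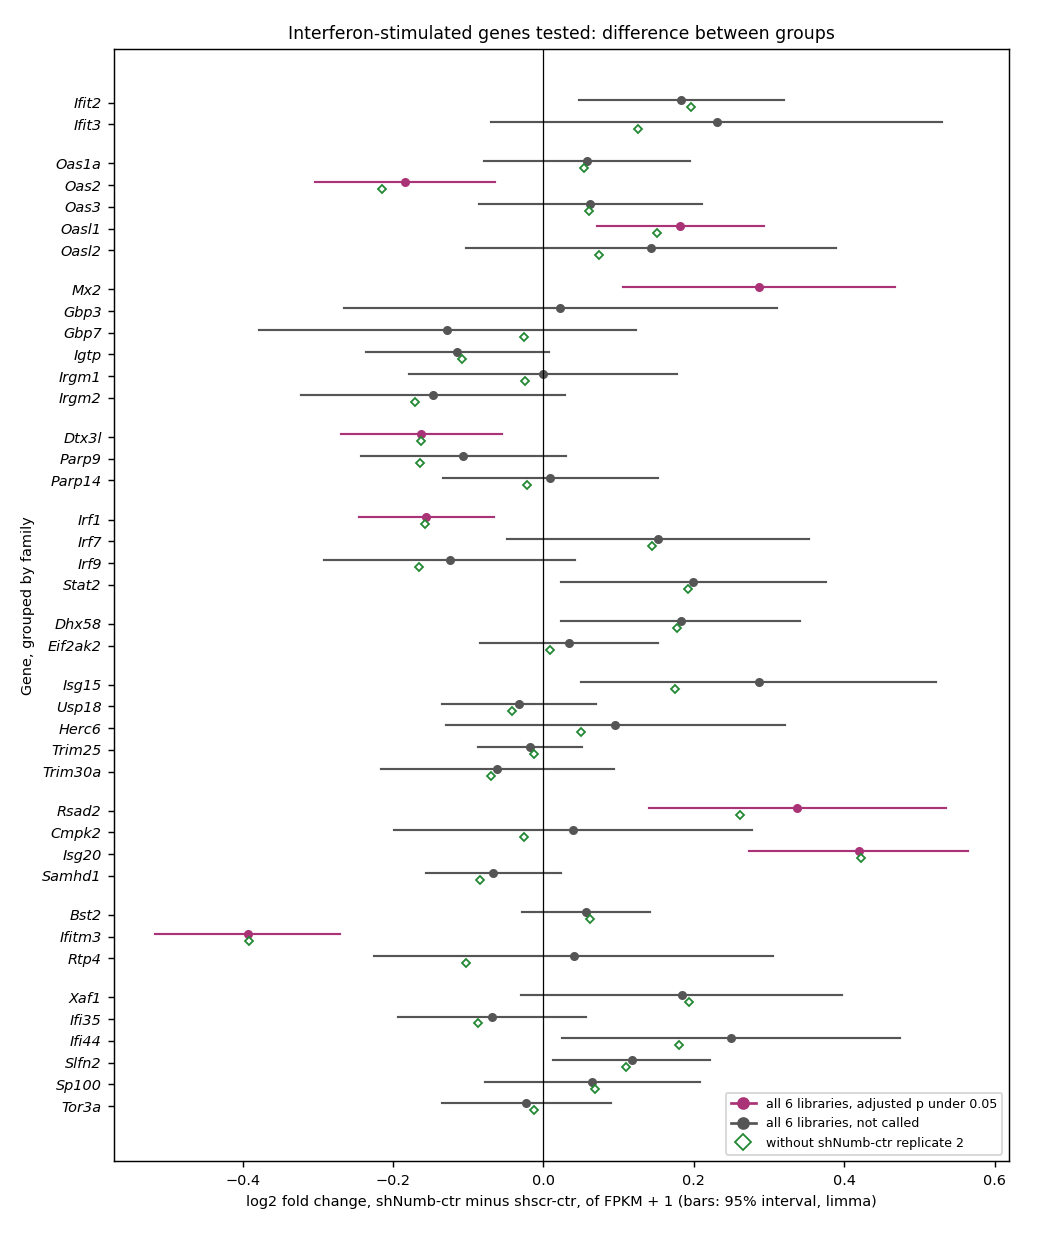
Difference between the groups for each of the 40 tested members, in family order. The x axis is the log2 fold change of FPKM + 1, shNumb-ctr minus shscr-ctr; filled points and bars are the limma estimate and its 95% interval with all 6 libraries, purple where the adjusted p was under 0.05, and open diamonds are the estimate without shNumb-ctr replicate 2 (Mx2 and Gbp3 were not tested without it). Isg20 at 0.42 and Ifitm3 at -0.39 lie farthest from 0.

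The members spanned levels from near 0 to over 200 FPKM. Ifitm3 and Bst2 had means over 100 FPKM, 16 members had means of 10 to 100, 20 of 1 to 10, and 9 under 1. Members with a value of at least 1 FPKM in at least 3 libraries were tested, and 7 failed that filter: Ifit1, Ifit3b, Mx1, Gbp2, Ifih1, Zbp1 and Slfn5. In these bulk samples, fewer cells that express a gene and less RNA per cell cannot be told apart.

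**Figure D2:**
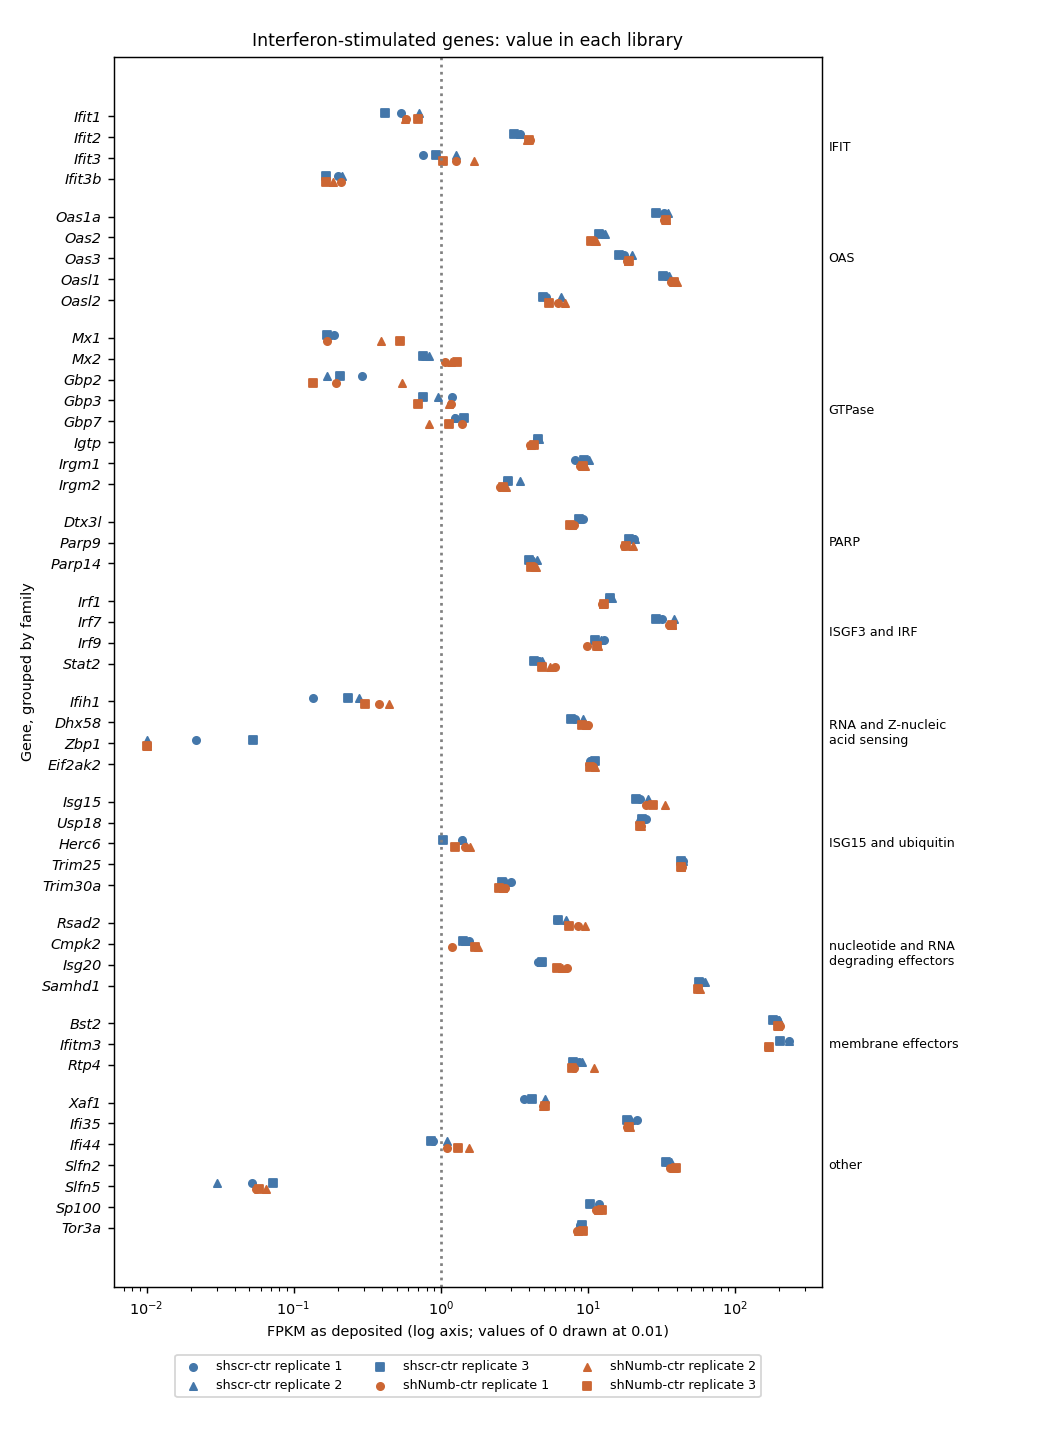
Value of each of the 47 members in each of the 6 libraries, on a log axis in FPKM as deposited, grouped by family; colours are the groups, marker shapes the replicates, and the dotted line is the filter value of 1 FPKM. Ifitm3 lies lower in all 3 shNumb-ctr libraries (167 to 171 FPKM) than in the 3 shscr-ctr libraries (202 to 234 FPKM), while most members overlap.

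Promoter sequences show what some of these genes share beyond their names. RefSeq promoters (GRCm38.p6) were found for 37 of the 47 members, and the 250 bases before each annotated start were searched on both strands. The letters GAAA, any 2 bases and GAAA again, a core of the interferon-stimulated response element called the GAAA pair here, stood before at least 1 start of 17 members (45.9%), against 3.46% of all 27025 genes of the table. The letters TTCNNNGAA, the core of the gamma-activated site, stood before 10 members (27.0%), against 8.13% of all genes. Matches to a motif can overlap each other and were counted singly per gene. A match is only a description of the letters in this window.

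The 200 bases before the start of 6 members are printed from 5′ to 3′ on the strand of the gene. They were chosen because Isg15 holds the densest run of matches, Rsad2 and Isg20 were called higher, Irf1 was called lower, and Ifit3 and Ifit3b are near copies. Capitals mark the GAAA pair, read on either strand, in Isg15, Rsad2, Ifit3 and Ifit3b, and TTCNNNGAA in Isg20 and Irf1.
Isg15 (chr4:156200819-156201018, minus strand): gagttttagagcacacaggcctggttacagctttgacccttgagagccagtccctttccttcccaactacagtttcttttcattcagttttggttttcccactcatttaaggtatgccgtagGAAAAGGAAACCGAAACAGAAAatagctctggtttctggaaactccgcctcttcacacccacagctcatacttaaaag
Rsad2 (chr12:26456453-26456652, minus strand): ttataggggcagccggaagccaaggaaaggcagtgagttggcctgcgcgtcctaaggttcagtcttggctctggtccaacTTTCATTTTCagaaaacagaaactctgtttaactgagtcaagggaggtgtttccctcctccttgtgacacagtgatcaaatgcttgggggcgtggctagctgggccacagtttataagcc
Ifit3 (chr19:34583329-34583528, plus strand): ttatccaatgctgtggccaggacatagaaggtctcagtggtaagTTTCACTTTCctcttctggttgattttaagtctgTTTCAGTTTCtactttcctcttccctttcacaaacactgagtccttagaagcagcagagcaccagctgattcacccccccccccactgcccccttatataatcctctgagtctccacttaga
Ifit3b (chr19:34607757-34607956, plus strand): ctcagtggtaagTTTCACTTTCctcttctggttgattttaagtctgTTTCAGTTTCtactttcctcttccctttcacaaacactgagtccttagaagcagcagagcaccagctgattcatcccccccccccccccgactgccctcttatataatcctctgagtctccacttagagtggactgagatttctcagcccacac
Isg20 (chr7:78913224-78913423, plus strand): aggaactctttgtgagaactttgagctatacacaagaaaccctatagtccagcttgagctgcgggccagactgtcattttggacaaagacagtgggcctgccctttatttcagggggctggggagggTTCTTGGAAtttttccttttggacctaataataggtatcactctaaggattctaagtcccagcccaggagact
Irf1 (chr11:53769814-53770013, plus strand): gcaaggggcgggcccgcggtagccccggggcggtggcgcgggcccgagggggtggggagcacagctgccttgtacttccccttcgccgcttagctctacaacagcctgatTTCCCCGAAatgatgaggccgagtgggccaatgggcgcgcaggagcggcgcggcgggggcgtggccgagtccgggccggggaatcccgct

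In Isg15 3 overlapping matches begin 78, 72 and 66 bases before the start. The Rsad2 match begins 120 bases before its start, that of Isg20 at 73 and that of Irf1 at 90. Beside 8.11% of all tested genes called higher and 10.7% lower, the counts by motif are small. Of the 17 members with the GAAA pair, 13 were tested, 1 (Rsad2) was called higher and 0 lower, and their median log2 fold change was 0.06. Of the 20 without it, 19 were tested, 2 were higher and 3 lower, with a median log2 fold change of 0.07. All 10 members with TTCNNNGAA were tested, 1 (Isg20) was called higher and 1 (Irf1) lower, and their median log2 fold change was -0.02. Isg20 and Irf1 carry TTCNNNGAA before the start printed above, but not before their other annotated starts.

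Among the transcription factors of the pathway, Irf1, a factor induced by interferon gamma, was called lower, whereas Stat2, Irf9 and Irf7 were not called. Irf1 (chromosome 11, 53770014 to 53778374) was at 14, 14.6 and 14.1 FPKM under the shscr-ctr label and 12.4, 12.7 and 12.9 FPKM under the shNumb-ctr label. The groups did not overlap, and the means were 14.2 ± 0.331 and 12.7 ± 0.224 FPKM (SD, n = 3), a log2 fold change of -0.16 (SE 0.039, limma adjusted p = 0.0294). Each omission of a single library ended the Irf1 call. The limma adjusted p was 0.0642, 0.0851 or 0.0730 after dropping shscr-ctr replicate 1, 2 or 3, and 0.0915, 0.0618 or 0.0583 after dropping shNumb-ctr replicate 1, 2 or 3.

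Stat2, the ISGF3 subunit that Irf9 binds, was at 4.67, 4.83 and 4.32 FPKM in the shscr-ctr libraries and at 6, 5.5 and 4.85 FPKM in the shNumb-ctr libraries,. The lowest shNumb-ctr value lay just above the highest shscr-ctr value, and the log2 fold change of 0.20 did not pass (SE 0.077, limma adjusted p = 0.104). Irf7, which amplifies type I interferon production, was the most abundant of these factors. It was at 31.9, 38.6 and 29.1 FPKM against 35.8, 37.2 and 37.3 FPKM, so the shscr-ctr libraries spanned the whole shNumb-ctr range (log2 0.15, limma adjusted p = 0.251). Without shscr-ctr replicate 2, where 14.4% of all tested genes were called, Irf7 was called higher (log2 0.26, limma adjusted p = 0.0171). Irf9 was at 12.05 ± 0.842 against 10.98 ± 0.972 FPKM (SD, n = 3, log2 -0.12, limma adjusted p = 0.257). Over the 4 factors the median log2 fold change was 0.01, and -0.01 without shNumb-ctr replicate 2, beside medians over all tested genes of -0.02 in both fits.

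In the family of IFIT proteins, which bind foreign RNA and block its translation, Ifit2 and Ifit3 were tested and neither was called. Ifit2 was at 3.46, 3.46 and 3.13 FPKM under the shscr-ctr label and 4.01, 3.86 and 3.97 FPKM under the shNumb-ctr label. The groups did not overlap, with a log2 fold change of 0.18 and a 95% interval of 0.05 to 0.32 (limma adjusted p = 0.0651). Ifit2 passed with a constant prior variance (limma adjusted p = 0.0356). Ifit3 was at 0.759, 1.26 and 0.922 against 1.28, 1.67 and 1.03 FPKM, with overlap (log2 0.23, limma adjusted p = 0.246). The IFIT median log2 fold change was 0.21, and 0.16 without shNumb-ctr replicate 2.

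Ifit1 and Ifit3b stayed below the filter, at 0.417 to 0.710 and 0.165 to 0.214 FPKM over the 6 libraries. Ifit3 and Ifit3b share 51.2% and 45.4% of their transcript windows with other genes, mostly each other, so reads could have been split between them and both levels are uncertain. Their promoters printed above are also alike: 188 of 218 aligned bases (86.2%) were identical at an offset of 32 bases, the pair of marked matches included.

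Of the oligoadenylate synthetases, which sense double-stranded RNA and activate RNase L, Oasl1 was higher and Oas2 lower, whereas Oas1a, Oas3 and Oasl2 were not called. Oasl1, a family member without synthetase activity that limits Irf7 translation in mice, was the most abundant of the family (chromosome 5, 114923240 to 114937915). It was at 33.8, 35.7 and 32.1 FPKM under the shscr-ctr label and 36.9, 40.3 and 38.5 FPKM under the shNumb-ctr label. All 3 shNumb-ctr values were above all 3 shscr-ctr values, at 1.14-fold (log2 0.18, SE 0.048, limma adjusted p = 0.0355). The Oasl1 call was lost without shscr-ctr replicates 1 or 3 or shNumb-ctr replicates 2 or 3, with limma adjusted p of 0.0929, 0.0981, 0.0900 and 0.0882.

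Oas2 moved the other way (chromosome 5, 120730333 to 120749853). It was at 12.4, 13.1 and 11.8 FPKM under the shscr-ctr label and 10.6, 11.3 and 10.5 FPKM under the shNumb-ctr label, again with no overlap. The log2 fold change of Oas2 was -0.18 (SE 0.052, limma adjusted p = 0.0428). The call was lost without shscr-ctr replicates 1 or 2 or shNumb-ctr replicates 1 or 3, with limma adjusted p of 0.105, 0.113, 0.114 and 0.117, after median-of-ratios rescaling (0.0584) or quantile normalization (0.0622), with no filter (0.0734) and with a constant prior variance (0.0519), and in 9 of the 14 alternatives in all. Oasl2 was at 5.18, 6.55 and 4.95 against 6.30, 6.92 and 5.45 FPKM, with overlap (log2 0.14, limma adjusted p = 0.378). Oas1a was at 32.3 ± 2.87 against 33.6 ± 0.446 FPKM and Oas3 at 17.9 ± 1.79 against 18.7 ± 0.274 FPKM (SD, n = 3), with limma adjusted p of 0.521 and 0.527. Oas1a shares 57.1% of its windows, mostly with Oas1g, and is uncertain. The OAS median log2 fold change was 0.06 with and without shNumb-ctr replicate 2, but 0.13 without shscr-ctr replicate 2 and 0.0007 without shscr-ctr replicate 3.

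The interferon-induced GTPases fall into Mx proteins, which trap viral nucleocapsids, guanylate-binding proteins and immunity-related GTPases, which act at vacuoles that hold pathogens. Mx2 was higher and the other 5 tested were not called. Mx2 (chromosome 16, 97535308 to 97560900) was at 0.753, 0.829 and 0.755 FPKM under the shscr-ctr label and 1.07, 1.17 and 1.28 FPKM under the shNumb-ctr label. The groups did not overlap, and the fold of means was 1.5 at these low levels (log2 0.29, SE 0.079, limma adjusted p = 0.0390). Without shNumb-ctr replicate 2, and without each other shNumb-ctr library, Mx2 fell below the filter, and without shscr-ctr replicates 1, 2 or 3 its limma adjusted p was 0.0999, 0.0610 and 0.0949. Its neighbour Mx1 was below the filter, at 0.187, 0.171 and 0.168 against 0.168, 0.391 and 0.524 FPKM, high in shNumb-ctr replicates 2 and 3.

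Irgm1, which protects host membranes from the family's effectors, was the most abundant GTPase. It was at 8.10, 10.2 and 9.40 against 8.76, 9.54 and 9.30 FPKM, with full overlap (log2 -0.00, limma adjusted p = 0.995). Irgm2, at 2.82, 3.43 and 2.88 against 2.54, 2.77 and 2.63 FPKM, and Igtp, at 4.48, 4.64 and 4.60 against 4.04, 4.11 and 4.30 FPKM, did not overlap between the groups, and neither passed. Their log2 fold changes were -0.15 and -0.11 (limma adjusted p = 0.208 and 0.163). Irgm2 and Igtp are adjacent on chromosome 11 and their annotated exons overlap, by 4.39% and 8.01% of their bases, so reads of the 2 genes could be mixed. Gbp3 and Gbp7 were at 0.700 to 1.19 and 0.831 to 1.44 FPKM over the 6 libraries, with overlap, and Gbp2 was below the filter with its highest value, 0.549 FPKM, in shNumb-ctr replicate 2. The median log2 fold change of the 6 tested GTPases was -0.06, and -0.07 without shNumb-ctr replicate 2 for the 4 then tested.

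Dtx3l, a ubiquitin ligase, and its partner Parp9, which modifies targets with ADP-ribose, form a complex and lie head to head on chromosome 16. Dtx3l (35926511 to 35939151) was lower in the libraries labelled shNumb-ctr, at 9.18, 8.70 and 8.66 against 8, 7.8 and 7.6 FPKM. The groups did not overlap (log2 -0.16, SE 0.047, limma adjusted p = 0.0459). The Dtx3l call was lost whichever library was left out, with limma adjusted p from 0.0793 (without shNumb-ctr replicate 1) to 0.142 (without shscr-ctr replicate 1), and after median-of-ratios rescaling (0.0573).

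Parp9 was at 20.6, 20.8 and 19.0 against 17.6, 20.3 and 18.1 FPKM, with overlap through shNumb-ctr replicate 2 (log2 -0.11, limma adjusted p = 0.238). Without that library its log2 fold change was -0.16 (limma adjusted p = 0.0704). Exons of the 2 genes overlap on opposite strands, by 8% of the bases of Dtx3l and 9.40% of those of Parp9, and whether counting used strand is not given in the sources used here. Parp14, a mono-ADP-ribosyltransferase, was at 4.19 ± 0.256 against 4.22 ± 0.201 FPKM (SD, n = 3, log2 0.01, limma adjusted p = 0.931). For these 3 genes the median log2 fold change was -0.11, and -0.16 without shNumb-ctr replicate 2.

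Of the 4 nucleic acid sensors, Dhx58 and Eif2ak2 were tested and neither was called. Dhx58 (LGP2), which modulates RNA sensing by its relatives, was at 8.15, 9.23 and 7.69 against 10.1, 9.68 and 9.08 FPKM. The lowest shNumb-ctr value lay below shscr-ctr replicate 2 (log2 0.18, limma adjusted p = 0.10), and without that library Dhx58 was called higher (log2 0.25, limma adjusted p = 0.0392). Eif2ak2 (PKR), which halts translation on double-stranded RNA, was the most abundant sensor, at 10.4, 10.1 and 11.1 against 10.9, 11.2 and 10.3 FPKM, with overlap (log2 0.03, limma adjusted p = 0.676). Ifih1 (MDA5), a cytosolic sensor of long double-stranded RNA, was below the filter at 0.136 to 0.278 and 0.304 to 0.444 FPKM. Zbp1, the sensor of Z-form nucleic acids, was at 0.0526 FPKM or less and listed at 0 in all 3 shNumb-ctr libraries.

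With all libraries, none of the 5 genes around the ubiquitin-like modifier ISG15 was called (limma, lowest adjusted p = 0.0877, that of Isg15). Isg15 itself was at 22.5, 25.5 and 21.3 FPKM under the shscr-ctr label and 24.8, 33.2 and 27.5 FPKM under the shNumb-ctr label. Values overlapped between shscr-ctr replicate 2 and shNumb-ctr replicate 1, and shNumb-ctr replicate 2 was the highest of the 6. The log2 fold change was 0.29 (SE 0.103, limma adjusted p = 0.0877), and 0.18 without shNumb-ctr replicate 2 (limma adjusted p = 0.173). It passed in 1 of the 14 alternatives. Usp18, which removes ISG15 and restrains the interferon receptor, was at 23.35 ± 1.30 against 22.8 ± 0.309 FPKM (SD, n = 3, log2 -0.03, limma adjusted p = 0.639).

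Trim25, a ubiquitin ligase of RNA sensing and the most abundant gene of this set, was at 44.5, 44.0 and 42.6 against 43.6, 42.8 and 43.0 FPKM. All 6 values lay close together, with a log2 fold change of -0.02 and a 95% interval of -0.09 to 0.05. Herc6, the main ISG15 ligase of mice, and Trim30a, a negative regulator of Toll-like receptor signalling, were at 1.03 to 1.59 and 2.48 to 2.99 FPKM over the 6 libraries (limma adjusted p = 0.520 and 0.556). Herc6 shares 23.9% of its windows, mostly with the overlapping predicted gene Gm45193, and is uncertain. Across the 5 genes the median log2 fold change was -0.02, and -0.01 without shNumb-ctr replicate 2.

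Among enzymes that act on nucleotides and RNA, Isg20 and Rsad2 were higher in the libraries labelled shNumb-ctr, and Samhd1 and Cmpk2 were not called. Isg20, an exonuclease that degrades RNA (chromosome 7, 78913424 to 78920396), was at 4.60, 4.77 and 4.85 FPKM under the shscr-ctr label and 7.25, 6.65 and 6.17 FPKM under the shNumb-ctr label. All shNumb-ctr values were above all shscr-ctr values, at 1.41-fold (log2 0.42, SE 0.063, limma adjusted p = 0.0051). Over the 14 alternatives the limma adjusted p of Isg20 was at most 0.0247, and without shNumb-ctr replicate 2 its log2 fold change was 0.42 (limma adjusted p = 0.0152).

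Rsad2 (viperin), which converts CTP into a chain terminator of viral RNA synthesis, was at 6.15, 7.04 and 6.30 FPKM under the shscr-ctr label and 8.54, 9.52 and 7.44 FPKM under the shNumb-ctr label (chromosome 12, 26442746 to 26456452). The groups did not overlap, at 1.31-fold (log2 0.34, SE 0.086, limma adjusted p = 0.0302). The Rsad2 call was lost without shscr-ctr replicates 1 or 3 or shNumb-ctr replicates 1 or 2, with limma adjusted p of 0.0948, 0.0834, 0.0809 and 0.0687.

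Cmpk2, a nucleotide kinase encoded next to Rsad2 and with an activity that supplies its substrate, was at 1.55, 1.47 and 1.42 against 1.18, 1.79 and 1.72 FPKM. The shNumb-ctr libraries lay on both sides of the shscr-ctr values (log2 0.04, limma adjusted p = 0.811). Samhd1, which hydrolyses deoxynucleotides, was the most abundant of the 4, at 59.3, 61.9 and 56.5 against 55.7, 57.9 and 55.8 FPKM, with overlap (log2 -0.07, limma adjusted p = 0.261). The median log2 fold change of the 4 enzymes was 0.19, and 0.12 without shNumb-ctr replicate 2.

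Of the membrane proteins, Ifitm3, which blocks fusion of viruses in endosomes, was called lower, whereas Bst2 and Rtp4 were not called. Ifitm3 (chromosome 7, 141009586 to 141010770) was at 232, 234 and 202 FPKM under the shscr-ctr label and 167, 169 and 171 FPKM under the shNumb-ctr label. The shNumb-ctr libraries lay close together and below all shscr-ctr libraries, with means of 169 ± 1.67 against 223 ± 18.0 FPKM (SD over 3 libraries each). The log2 fold change of Ifitm3 was -0.39 (SE 0.0535, limma adjusted p = 0.0037). Over the 14 alternatives its limma adjusted p was at most 0.0167, and without shNumb-ctr replicate 2 its log2 fold change was -0.39 (limma adjusted p = 0.0120).

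Bst2 (tetherin), which holds budding virus at the cell surface, was at 194, 198 and 180 against 201, 197 and 196 FPKM, with overlap (log2 0.06, 95% interval -0.03 to 0.14, limma adjusted p = 0.310). Rtp4, a transmembrane protein first known as a receptor transporter, was at 8.64, 9.10 and 7.86 against 7.97, 10.9 and 7.76 FPKM. Only shNumb-ctr replicate 2 stood above the shscr-ctr range, and the sign of Rtp4 turned without it, from a log2 fold change of 0.04 to -0.10, neither called (limma adjusted p = 0.829 and 0.331). The median log2 fold change of the 3 genes was 0.04, and -0.10 without shNumb-ctr replicate 2.

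None of the 7 remaining members was called. Slfn2, a regulator of lymphocyte quiescence, was the most abundant, at 34.1, 36.8 and 33.9 against 36.2, 38.4 and 39.4 FPKM, with a small overlap (log2 0.12, limma adjusted p = 0.105). Ifi44 was at 0.890, 1.11 and 0.854 against 1.11, 1.55 and 1.31 FPKM. The groups of Ifi44 touched but did not overlap (log2 0.25, limma adjusted p = 0.110). Xaf1, an antagonist of the apoptosis inhibitor XIAP, was at 4.31 ± 0.718 against 5.00 ± 0.110 FPKM (SD, n = 3, log2 0.18, limma adjusted p = 0.197) and was called higher without shscr-ctr replicate 2 (log2 0.29, limma adjusted p = 0.0372). Ifi35, the nuclear body protein gene Sp100 and the torsin family gene Tor3a had limma adjusted p of 0.409, 0.490 and 0.772, and Slfn5 was at 0.0724 FPKM or less.

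Over all 40 tested members the median log2 fold change was 0.04, against -0.02 over all tested genes. Without shNumb-ctr replicate 2 it was -0.00 over 38 members, against -0.02, and 19 members lay above 0 and 19 below, where 24 and 16 had done so with all libraries. The groups did not overlap for 13 of the 40 members, 7 higher and 6 lower (32.5%), whereas they did not overlap for 39.9% of all tested genes, 16.3% higher and 23.6% lower. The median within-group SD of the members was 0.09 on the log2 scale, against 0.06 for all tested genes, and their median level was lower (3.30 against 3.8 on that scale).

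**Figure D3:**
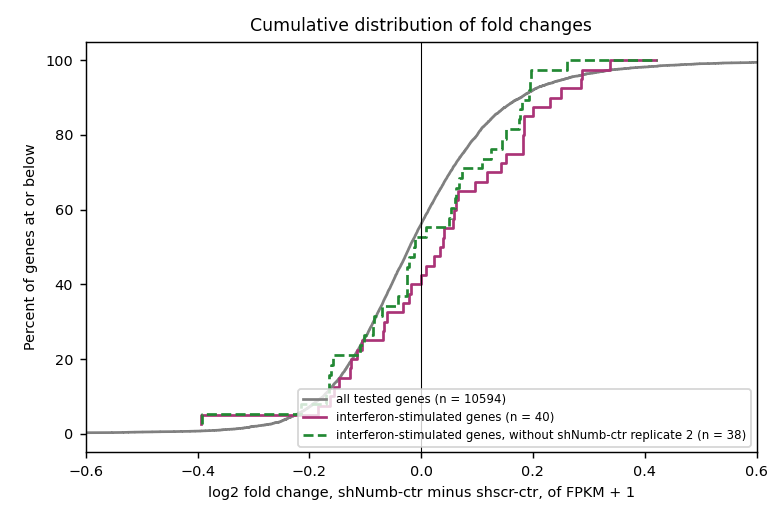
Cumulative distribution of log2 fold changes (x axis, shNumb-ctr minus shscr-ctr, of FPKM + 1) for all 10594 tested genes, for the 40 tested members and for the 38 members tested without shNumb-ctr replicate 2; the y axis is the percent of genes at or below a value. The members' median is 0.04 with all libraries and -0.00 without shNumb-ctr replicate 2.

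Libraries of the same label also differed in the members. Each library was compared with the mean of the other 2 of its group. Of the 40 tested members, shscr-ctr replicate 2 was above the others of its group at 31 (77.5%, against 45.8% of all tested genes), with a median deviation of 0.10 on the log2 scale, and was the highest of all 6 libraries at 12 (30%, against 14.8%). Replicate 3 of shscr-ctr was above the others at 6 (15%, against 49.8%), with a median deviation of -0.10. It was the lowest of all 6 libraries at 16 of the 40 members (40%), against 13.2% of all tested genes. In the other group, shNumb-ctr replicate 2 was above the others at 29 members (72.5%, against 54.9%), with a median deviation of 0.03, and was the highest of all 6 at 10 (25%, against 15.8%). These shares are descriptions with no test.

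**Figure D4:**
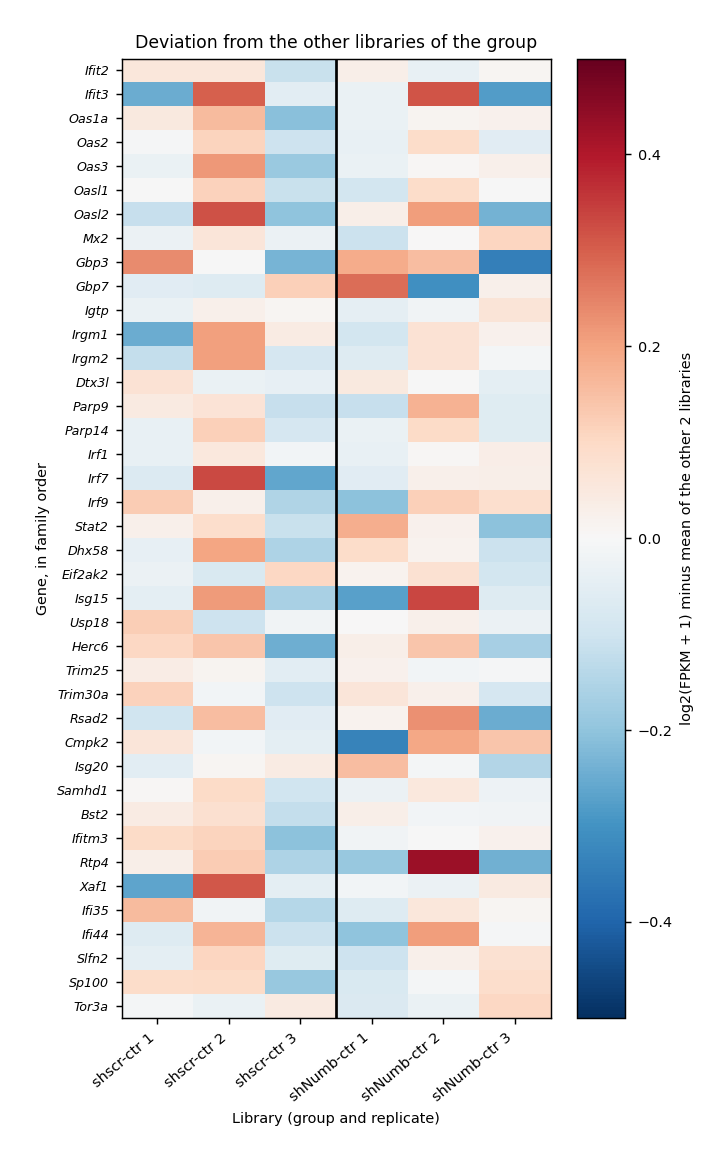
Deviation of each library from the mean of the other 2 libraries of its group, as log2(FPKM + 1), for the 40 tested members (rows, in family order) and the 6 libraries (columns); the black line parts the groups. The column of shscr-ctr replicate 2 is mostly red (31 members above), that of shscr-ctr replicate 3 mostly blue (6 above) and that of shNumb-ctr replicate 2 mostly red (29 above).

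In shNumb-ctr replicate 2, 7 of 13 listed stimulation genes stood more than 1 above the other libraries of the group on the log2 scale. Il6, Il1b, Lcn2, Cxcl2, Il1a and Saa3 were 1.79, 1.75, 2.04, 3.06, 1.33 and 1.19 higher there than the mean of shNumb-ctr replicates 1 and 3, and Cxcl10, a chemokine induced by interferons and by NF-kB, was 1.37 higher. Cxcl10 was at 1.35, 1.65 and 1.2 FPKM in the shscr-ctr libraries and at 1.72, 6.56 and 2.16 FPKM in the shNumb-ctr libraries (log2 0.75, limma adjusted p = 0.151; without shNumb-ctr replicate 2, log2 0.29, limma adjusted p = 0.125). The other 6 of the list lay below 0.5: Ccl5 (0.42), Ptgs2 (0.41), Ccl2 (0.40), Tnf (0.36), Nos2 (-0.05) and Cxcl1, listed at 0 in every library. Of the 9 stimulation genes tested, the chemokine genes Ccl2 (log2 0.65, limma adjusted p = 0.0081) and Ccl5 (log2 0.92, limma adjusted p = 0.0117) were called higher and 0 were lower. Of all tested genes, 8.11% were called higher and 10.7% lower. Both chemokine calls were kept in all 14 alternatives. The list was made with earlier results of this library known, so these deviations are a description. No tested member deviated by 0.5 or more in any library; the largest deviations in shNumb-ctr replicate 2 were those of Rtp4 (0.43), Isg15 (0.33) and Ifit3 (0.31). Its part in the members' differences is given by the values without it above.

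**Figure D5:**
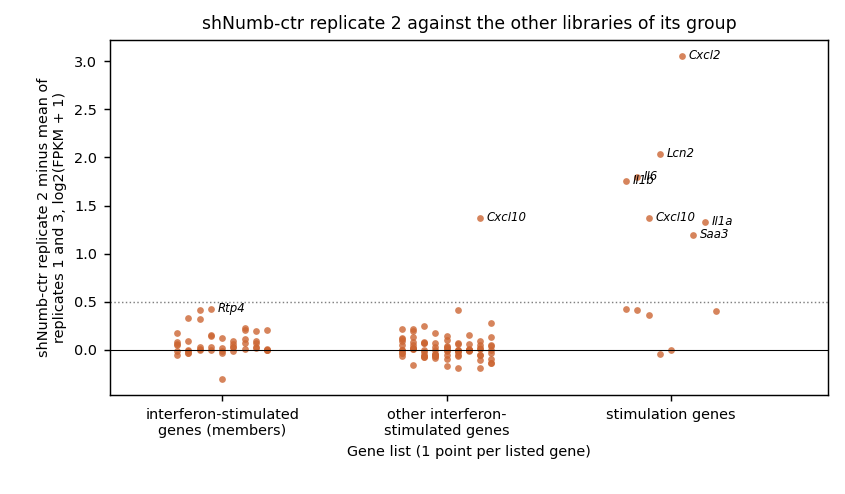
Difference of shNumb-ctr replicate 2 from the mean of shNumb-ctr replicates 1 and 3, in log2(FPKM + 1), 1 point per listed gene, for the 47 members, for 87 other interferon-stimulated genes and for 13 stimulation genes (Cxcl10 is in both of the latter lists); the dotted line is at 0.5. The members stay below the line, while Cxcl2, Lcn2, Il6, Il1b, Cxcl10, Il1a and Saa3 lie above 1.

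Upstream of these genes, no interferon was detected at a level that could be tested, and the receptor for type I interferon was not called. Of 20 interferon ligand genes 19 were listed at 0 in all 6 libraries. The exception, Ifnb1, was at 0.0484, 0 and 0.0754 against 0, 0 and 0.0602 FPKM. Ifnar1 was at 16.5, 17.8 and 16.8 against 18.0, 17.9 and 18.9 FPKM (log2 0.10, limma adjusted p = 0.139) and Ifnar2 at 46.9, 53.9 and 51.3 against 51.9, 49.1 and 56.8 FPKM (log2 0.05, limma adjusted p = 0.598). Of the 9 receptor and kinase genes, all tested, Ifngr2 and Il10rb were called higher and 0 lower, beside 8.11% and 10.7% of all tested genes. Ifngr2, the signalling chain of the interferon gamma receptor, rose from a mean of 15.3 ± 0.651 to 18.5 ± 0.767 FPKM (SD over 3 libraries, log2 0.26, limma adjusted p = 0.0098), a call kept in all 14 alternatives. The Il10rb call (log2 0.11, limma adjusted p = 0.0427) was lost whichever library was left out, with limma adjusted p from 0.0558 (without shscr-ctr replicate 3) to 0.127 (without shscr-ctr replicate 1).

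Of 12 STAT and IRF genes outside the members 9 were tested, and Stat6, Irf8 and Irf2bp2 were lower and 0 higher, beside 10.7% and 8.11% of all tested genes. Stat6, the mediator of interleukin-4, fell from a mean of 44.7 ± 0.454 to 38.9 ± 0.839 FPKM (SD over 3 libraries, log2 -0.20, limma adjusted p = 0.0056), and Irf2bp2, a corepressor, from 20.7 ± 0.334 to 16.8 ± 0.572 (log2 -0.29, limma adjusted p = 0.0037). The Irf8 call (log2 -0.13, limma adjusted p = 0.0305) was lost on dropping any library but shscr-ctr replicate 3, the limma adjusted p then running from 0.0663 (without shNumb-ctr replicate 1) to 0.101 (without shscr-ctr replicate 1). Among 13 tested negative regulators, of 15 listed and with Isg15 and Usp18 among them, Socs3, Ptpn2 and Ptpn6 were lower and 0 higher, against the same shares of all tested genes. These lists are short, and their counts are no result about a list. Socs3, an inhibitor of JAK kinases, fell by 0.22 on the log2 scale (limma adjusted p = 0.0223), and its call was lost without shscr-ctr replicate 1 or shNumb-ctr replicates 1 or 3 (limma adjusted p = 0.0728, 0.0709 and 0.0533). The calls of Ptpn2 (log2 -0.15) and Ptpn6 (log2 -0.12), phosphatases that act on JAK and STAT signalling, were each lost when 5 of the 6 libraries were left out in turn, with limma adjusted p up to 0.139 and 0.0923, both without a shscr-ctr library.

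A wider list of 87 other interferon-stimulated genes, 69 of them tested, held 10 called higher and 3 lower, beside 8.11% and 10.7% of all tested genes. The median log2 fold change of the 69 genes was 0.06. Without Apol9a, which passed the filter only through the shNumb-ctr libraries and whose call is conditioned on that, 9 of 68 were higher and 3 lower. Those with the smallest adjusted p were Apol9a, B2m and H2-D1 on the higher side and Gbp8, Psmb10 and Ifi30 on the lower side. Apol9a, an apolipoprotein L gene, was at 0.795, 0.997 and 0.715 FPKM under the shscr-ctr label and 2.67, 3.09 and 3.26 FPKM under the shNumb-ctr label (log2 1.13 of FPKM + 1, fold of means 3.6, SE 0.091, limma adjusted p = 5.1e-04). The longest Apol9a transcript shared 0% of its windows, but its relative Apol9b shared 51.0%, most with Apol9a. Reads could thus have been mixed between Apol9a and Apol9b. B2m, the light chain of major histocompatibility class I, rose from 835 ± 3.15 to 992 ± 26.4 FPKM, and the class I heavy chain gene H2-D1 from 344 ± 2.92 to 403 ± 11.5 FPKM (SD over 3 libraries; log2 0.25 with limma adjusted p = 0.0015, and log2 0.22 with 0.0024). Gbp8, a guanylate-binding protein gene, fell from a mean of 2.95 ± 0.129 to 1.86 ± 0.170 FPKM, and Psmb10, a subunit of the immunoproteasome, from 32.4 ± 1.22 to 27.1 ± 1.5 FPKM (SD over 3 libraries, log2 -0.47 and -0.25, limma adjusted p = 0.0051 and 0.0120). Without shNumb-ctr replicate 2, 68 were tested, 7 were higher and 5 lower, beside 6.24% and 8.26% of all genes tested in that fit.

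Ifi204, the interferon-inducible gene named in the series title, was at 13, 13.1 and 12.8 FPKM under the shscr-ctr label and 15.5, 15.5 and 14 FPKM under the shNumb-ctr label. It was called higher with all libraries (log2 0.20, limma adjusted p = 0.0269) and lost that call in 6 of the 14 alternatives. Among these were the omissions of shscr-ctr replicate 1, 2 or 3 (limma adjusted p = 0.0754, 0.0542 and 0.0776) and of shNumb-ctr replicate 1 or 2 (0.0869 and 0.0714). The longest Ifi204 transcript shared 30.7% of its windows with other genes, most with Ifi211. Reads could thus have been mixed between these genes, and the level and call of Ifi204 are uncertain.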

How the data were processed

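RNA of BV2 cells was sequenced by a company after TRIzol lysis, per the labels' protocols, in 3 libraries per group. The authors deposited 1 value per gene and library. No header names a unit; these fractional deposited values were read as FPKM, which scales for length and depth, although TPM is possible. The submitters' processing notes name CASAVA and DESeq2 without roles; for aligner and genome build, not given in the sources used here. The depth is unknown, so no counting interval is given.

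Values were analysed as log2(FPKM + 1), and genes with at least 1 FPKM in at least 3 libraries (10594 of 22672) were fitted in limma 3.58.1 (R 4.3.3) with a prior variance that follows the mean and the label as its one term; tests were two-sided, with p-values adjusted by Benjamini and Hochberg. The fit was tested on simulated data. No set test was used. The members and the lists were chosen with earlier results of these data known. Every member is named; values in every sample are given for called members, for the most abundant and the most changed uncalled member of each family, and for a few others chosen after their values were seen. Outside the members, at most 3 called genes per list and direction are named, beside genes fixed with the lists; the stimulation genes other than Cxcl10, Ccl2 and Ccl5 were added after their values were seen.

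Coordinates and transcript windows (50 bases, every 10 bases of the longest transcript, searched in all other genes) come from GENCODE M21 (GRCm38), matched by gene ID, and promoters from RefSeq (GRCm38.p6); the authors' build may differ. Members with over 20% shared windows (4 of 47) are called uncertain, and so is Ifi204, which is no member. No label names a batch. The alternatives were other pseudocounts, filters, scalings and prior variance, a replicate block, and leaving out each library. Some genes are not reported here.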

Additional observations from a re-analysis of the deposited data

How the results depend on the processing

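Of the 14 alternatives, the 2 other pseudocounts gave the same 8 called members. Without a filter 2 members were higher and 2 lower (5.08% and 5.76% of all genes), and with median-of-ratios rescaling 2 were lower (8.31% of all genes). A constant prior variance called 5 genes of the pathway lists lower, beside 8.39% of all genes. Family medians of the log2 fold change moved to 0.3149 for IFIT with pseudocount 0.1 and to 0.0109 for GTPases without a filter. With a mean of at least 5 required, they were -0.0010 for GTPases, 0.3379 for nucleotide and RNA enzymes and 0.0214 for the remaining members. That filter left only Irgm1 among the GTPases. It dropped Cmpk2 from the enzymes, whose median was then the value of Rsad2. Medians under other filters are therefore not over the same genes. Over all tested genes, same-numbered libraries did not deviate together (correlations of 0.007, 0.012 and 0.047), so the numbers were not taken as pairs. That check was not made over the members alone. Replicate 2 was above the others of its group at 31 (shscr-ctr) and 29 (shNumb-ctr) of the 40 tested members. For replicate 3 the numbers were 6 and 17, and for replicate 1 they were 18 and 15. Whether the members pair by replicate number was not tested. A fit with the replicate block called 520 genes higher and 559 lower (4.91% and 5.28%), members 4 higher and 1 lower (Isg15 with limma adjusted p = 0.0331 among the higher), and 4 pathway genes lower.

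Leaving out 1 library called 499 to 671 genes higher (4.73% to 6.37% of all genes) and 465 to 869 lower (4.41% to 8.26%). Beside these shares, 1 to 6 members were higher and 1 to 2 lower, and 9 to 12 pathway genes were higher and 4 to 9 lower. The median over all members ranged from -0.0018 to 0.0751. Family medians ranged from 0.1610 to 0.2662 for IFIT, 0.0007 to 0.1349 for OAS, -0.1356 to -0.0288 for GTPases, -0.1622 to -0.0681 for PARP, -0.0476 to 0.0558 for the transcription factors, 0.0902 to 0.1421 for the sensors, -0.0355 to 0.0082 for the ISG15 group, 0.1177 to 0.2415 for nucleotide and RNA enzymes, -0.1023 to 0.0827 for membrane proteins and 0.05 to 0.1256 for the remaining members. The cause of these shifts was not tested. Signs turned in 20 uncalled values. As log2 fold changes, the scalings gave -0.0409 for Gbp3, 0.0125 for Irgm1 and 0.0061 for Trim25 (quantile) and 0.0156 for Irgm1 (median of ratios). With 1 library left out, Tor3a ranged from -0.0568 to 0.0012, Gbp3 from -0.0549 to 0.1366, Oas1a from -0.0120 to 0.1113, Usp18 from -0.0677 to 0.0082, Irgm1 from -0.0836 to 0.0675, Cmpk2 from -0.0258 to 0.1507, Rtp4 from -0.1023 to 0.1199, Parp14 from -0.0222 to 0.0490 and Ifnar2 from -0.0026 to 0.0992. The 7 members below the filter were tested only without it, and the depth behind the values is unknown.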
